A study of Homo sapiens with 4 samples.

Results

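Epithelial-mesenchymal transition (EMT) genes were followed through the m6A peak lists of lung adenocarcinoma (LUAD) cells with and without METTL3 knockdown. In EMT, epithelial cells loosen their junctions and take on a migratory form. The transcription factors ZEB1 and SNAI2 (also known as Slug) repress CDH1, the gene of E-cadherin, which holds epithelial cells together, while VIM, an intermediate filament gene, and CDH2, the gene of N-cadherin, mark the mesenchymal form. m6A is written on mRNA by a complex whose catalytic subunit is METTL3, and it is commonly found near stop codons and in long exons. Members were all peaks whose summit, the position with the most reads, lay in the gene window of 1 of these 5 genes. This rule used position only, but the genes were chosen with earlier results of these data known. The members were 7 of the 21693 peaks of both lists, with 3 of 9441 under NC-sh and 4 of 12252 under METTL3-sh. Of the 7 peaks, 6 lay in the window of ZEB1 and 1 in that of CDH2, and none lay in those of SNAI2, VIM or CDH1.

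H1975, an established human LUAD cell line, received by lentivirus either a control shRNA (NC-sh) or an shRNA against METTL3 (METTL3-sh) for 48 h. For MeRIP-seq, total RNA is fragmented and fragments carrying m6A are pulled down with an antibody, and an Input library is made from fragments before the pull-down. The 4 samples were 1 Input and 1 MeRIP library per condition. The series text mentions replicates, but only these 4 libraries are labelled, so the spread between libraries of a condition is unknown and no test was possible. The shRNA against METTL3 is shown because it defines the METTL3-sh group. The level of METTL3 after knockdown was not analysed here.

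METTL3 shRNA: gctgcacttcagacgaattat

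Each list gives the position of a peak in hg19 and the authors' values from the peak caller. Fold enrichment is the ratio of MeRIP signal at the summit to the signal expected locally, and the lowest in both lists was 6.0. Pileup is the number of MeRIP reads over the summit times 1 factor per library, which was 0.327 under NC-sh and 0.364 under METTL3-sh, so reads could be counted back. A summit held a median of 169 reads under NC-sh and 132 under METTL3-sh, and at least 25 and 24 reads. The total depth of the libraries is unknown. In both lists all peak names begin with H1299, another lung cancer line, whereas the labels give H1975. Among 6 markers of lung adenocarcinoma or epithelium (KRT7, KRT8, KRT18, EPCAM, NKX2-1 and NAPSA), 5 had no peak in either list and KRT7 had 2 peaks in METTL3-sh alone. A missing peak gives no level of the RNA or of its m6A, so the lists did not tell the lines apart by these genes.

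ZEB1 was the only member gene with peaks in both libraries. It codes for a zinc finger repressor of epithelial genes and has a window of 212 kb on chromosome 10. In each library the window held 3 peaks, 1 at the 5′ end and 2 in the last 10% at the 3′ end, with none along the rest. The 5′ peak ran over chr10:31606925-31607427 under NC-sh and chr10:31606948-31607568 under METTL3-sh, and the summits lay 121 and 124 bp inside the window. The window is 0.612 kb wider than the RefSeq gene of GRCh38.p14, so whether these summits lay inside the gene itself is not known. The first 3′ peak was at chr10:31810517-31810914 under NC-sh and chr10:31809241-31810795 under METTL3-sh. The last peak was at chr10:31815563-31815826 and chr10:31815564-31815849, with summits 3301 and 3273 bp before the end of the window. Peaks are numbered along the genome, and the 3 ZEB1 peaks had consecutive numbers in both lists (1461 to 1463 and 1983 to 1985). Thus no numbered peak was missing between them.

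**Figure D1:**
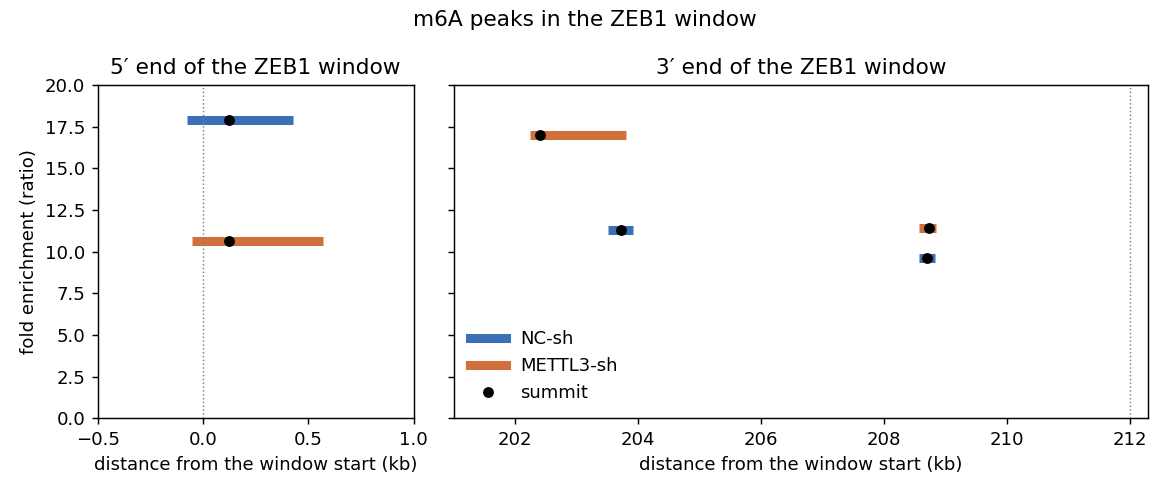
Peaks in the ZEB1 window, with the distance from the window start in kb on the x axis and fold enrichment on the y axis. The left and right panels show the 5′ and 3′ ends, at different scales. Bars span a peak, black points are summits and dotted lines mark the ends of the window. The 5′ and last peaks coincided in NC-sh (blue) and METTL3-sh (orange), whereas the summits of the middle pair lay 1329 bp apart.

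All 3 NC-sh peaks of ZEB1 overlapped a METTL3-sh peak by at least 1 bp, against 76.2% of all NC-sh peaks. Of the 4 METTL3-sh members, the 3 in ZEB1 overlapped an NC-sh peak, against 58.6% of all METTL3-sh peaks. With 3 and 4 peaks, nothing particular to the members is read from these shares. Each ZEB1 peak overlapped only its counterpart, which gave 3 pairs in ZEB1 out of 6863 such one-to-one pairs in the lists. A pair is called here when fold enrichment differed by at least 1.5-fold, which held for 22.9% of all pairs with higher and 12.8% with lower values in METTL3-sh. By this rule 1 ZEB1 pair was higher, 1 was lower and 1 passed neither limit.

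At the 5′ end of ZEB1, fold enrichment was 17.9 under NC-sh and 10.6 under METTL3-sh, a log2 ratio of -0.75. The reads at this summit were 216 under NC-sh (95% exact Poisson interval 188 to 247) and 231 under METTL3-sh (202 to 263). Their ratio of 1.07 has a 95% exact binomial interval of 0.884 to 1.29, for reads not scaled to library depth. The local expectation, in the scaled reads of the pileup, was 3.0 under NC-sh and 7.0 under METTL3-sh. The lower fold enrichment thus went with a higher expected signal, the log2 ratio of the expectation (with 1 added) being 1.0, above that of 92.2% of all pairs. How the expectation depends on the Input libraries was not tested. No interval was made for these small expectations, so the precision of the fold enrichment is not known.

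The middle pair, near the 3′ end of ZEB1, went the other way. Fold enrichment was 11.3 under NC-sh and 17 under METTL3-sh, a ratio of 1.5 that lay at the limit for a call. The NC-sh summit held 73 reads (57.2 to 91.8) and the METTL3-sh summit 156 (132 to 182), a ratio of 2.14 (1.61 to 2.86). These reads were not counted at the same base. The METTL3-sh peak was 1555 bp long, longer than 98.3% of peaks in its list, whereas the NC-sh peak was 398 bp long and overlapped the 3′ end of the longer peak. The summits were 1329 bp apart, a distance above 1 kb being seen in 3 of the 6863 pairs, against a median of 17 bp. The local expectation was 1.20 under NC-sh and 2.40 under METTL3-sh. Fold enrichment and local expectation were both higher in METTL3-sh in this pair, in contrast to the 5′ peak.

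The last ZEB1 peak differed least between the libraries. Fold enrichment was 9.60 under NC-sh and 11.4 under METTL3-sh, a log2 ratio of 0.25. It rested on 126 reads (105 to 150) under NC-sh and 123 reads (102 to 147) under METTL3-sh, a ratio of 0.976 (0.755 to 1.26), and on a local expectation of 3.40 and 3.0. The 3 ZEB1 pairs therefore had log2 ratios of -0.75, 0.59 and 0.25, with a median of 0.25 beside 0.13 (quartiles -0.27 and 0.54) over all pairs. The sign of this median rests on the middle pair, since it was -0.25 when an overlap of 50% of both peaks, or summits within 100 bp, was required and that pair dropped out. Each of these values stems from 1 library per condition, and the intervals cover counting error only, since reads without molecular identifiers are not independent molecules.

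**Figure D2:**
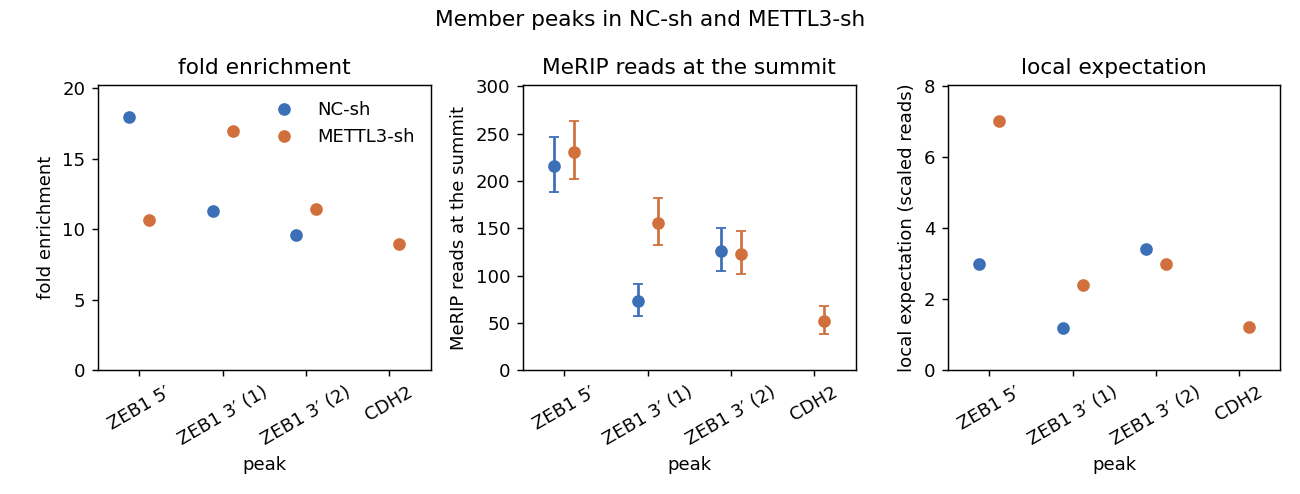
Fold enrichment, MeRIP reads at the summit and local expectation (scaled reads) of the 7 member peaks, by peak on the x axis, in NC-sh (blue) and METTL3-sh (orange). Bars on the reads are 95% exact Poisson intervals. Reads at the 5′ ZEB1 peak overlap between libraries (216 and 231) while the expectation is 3.0 and 7.0, and the CDH2 peak has a METTL3-sh value only.

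The 5′ end of ZEB1 holds starts of transcripts on both strands. In the RefSeq annotation of GRCh38.p14, ZEB1 overlaps the antisense RNA ZEB1-AS1, and the lists carry no strand, so the 5′ peak cannot be given to either RNA. RefSeq gives 7 start windows of ZEB1 and 2 of ZEB1-AS1, each of 300 bases around the start. The sequences of the first ZEB1 start and of the ZEB1-AS1 start nearest to it are shown because the peak lies at this end of the window. GGAC, a common core of the m6A consensus, and its reverse complement GTCC, which is GGAC on the other strand, are in capitals. The sequences are from GRCh38.p14 and the peaks are in hg19, so the distance between motif and summit was not measured.

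ZEB1, chr10:31318167-31318466, plus strand: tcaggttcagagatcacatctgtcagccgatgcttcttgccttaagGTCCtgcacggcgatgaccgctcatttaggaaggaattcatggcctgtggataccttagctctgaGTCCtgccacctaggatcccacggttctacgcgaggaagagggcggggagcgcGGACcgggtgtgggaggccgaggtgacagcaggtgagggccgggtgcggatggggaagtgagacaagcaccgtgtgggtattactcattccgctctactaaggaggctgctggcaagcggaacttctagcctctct
ZEB1-AS1, chr10:31319046-31319345, minus strand: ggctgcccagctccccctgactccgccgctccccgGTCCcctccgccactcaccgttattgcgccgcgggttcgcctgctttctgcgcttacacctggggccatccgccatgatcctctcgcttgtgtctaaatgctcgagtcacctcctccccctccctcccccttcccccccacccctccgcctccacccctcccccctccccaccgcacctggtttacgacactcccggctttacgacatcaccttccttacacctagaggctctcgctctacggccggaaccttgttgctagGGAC

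The start window of ZEB1 holds GGAC at 1 position and GTCC at 2, and that of ZEB1-AS1 holds each at 1 position. Of 35116 RefSeq start windows of this length, 66.3% hold GGAC on the strand of the gene and 87.4% hold it on either strand, so these letters do not set ZEB1 apart. A match is no evidence of a methylated base.

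CDH2 had a listed peak in METTL3-sh alone. N-cadherin joins mesenchymal and neural cells, and its gene has a window of 228 kb, which is shorter than the RefSeq gene of GRCh38.p14. The peak, at chr18:25530437-25530835, had its summit 587 bp before the 3′ end of the window. It was supported by 52 reads (38.8 to 68.2), fewer than the median of its list, with a fold enrichment of 8.97 and a local expectation of 1.22. No NC-sh peak overlapped it, as was the case for the METTL3-sh peaks outside the 58.6% given above. In NC-sh the nearest listed peaks were numbered 6391 and 6393, so 1 numbered peak was missing somewhere between 1402 kb before the window and 2902 kb after it. Whether that peak lay in CDH2 is not known from the numbers. CDH2 overlaps the antisense RNA CDH2-AS1 in RefSeq, and without strand the peak cannot be given to either RNA.

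CDH1, VIM and SNAI2 had no peak in either library. The CDH1 window of 99 kb on chromosome 16 had its nearest summits 172 kb before it and 24.1 kb after it in both lists, with 1 number missing in each. VIM, whose window spans 10 kb on chromosome 10, had the nearest summit before it at 1985 kb under NC-sh and 12.9 kb under METTL3-sh. On the other side, the nearest summit of both lists lay 83.1 kb after the window. Between these neighbours 5 numbers were missing under NC-sh and 2 under METTL3-sh. SNAI2, the shortest window with 5 kb, had no summit within 874 kb in either library. Between its neighbours 4 numbers were missing under NC-sh and 2 under METTL3-sh. Peaks that were numbered but are not in the lists may thus have stood in any of these windows, and the RNA level of the 3 genes was not analysed here. No peak lay just outside a window edge, since widening each window by 1 kb added no peak, and the members nearest to an edge were the 5′ peak of ZEB1, at 121 and 124 bp, and the CDH2 peak, at 587 bp.

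Besides the 5 members, 37 genes of the EMT programme were examined by role in hg19 windows. Of these, 11 had a peak under NC-sh and 17 under METTL3-sh, while 20 had none in either. All 11 with an NC-sh peak had a METTL3-sh peak too, 6 had a peak in METTL3-sh alone and 0 in NC-sh alone. The METTL3-sh list is the longer of the lists, with 12252 peaks against 9441, and since the lists name no genes, the same count over all genes was not made and no excess is read from these numbers. Together they held 18 NC-sh peaks, of which 15 were overlapped (83.3%, beside 76.2% of the list), and 30 METTL3-sh peaks, of which 17 were overlapped (56.7%, beside 58.6%). These shares are close to those of the whole lists. As in ZEB1 and CDH2, peaks were often near the 3′ end: 10 of the 18 peaks listed for NC-sh and 13 of the 30 for METTL3-sh lay in the last 10% of the window, against 0 and 1 in the first 10%. They gave 13 pairs, 7 of them higher and 6 lower under knockdown. Their median log2 ratio was 0.31, beside 0.13 over all pairs. In 1 of them fold enrichment was at least 1.5-fold higher and in 2 at least 1.5-fold lower, against 22.9% and 12.8% of all pairs.

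Among 6 other EMT transcription factors, TWIST1 and ZEB2 had peaks. TWIST1, a basic helix-loop-helix factor, had 2 peaks in both libraries, with a fold enrichment of 12.4 and 10.2 under NC-sh and 16.2 and 8.42 under METTL3-sh. ZEB2, the paralog of ZEB1, shared 1 peak, with 7.10 under NC-sh and 9.13 under METTL3-sh on 62 and 48 reads, and had 2 more in METTL3-sh. None of these 3 pairs passed 1.5-fold. Like the 3′ peaks of ZEB1, the shared ZEB2 peak lay in the last 10% of its window. SNAI1, TCF3, TCF4 and FOXC2 had no peak.

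Of 11 epithelial junction and keratin genes, 4 had peaks in both libraries. CLDN1, a tight junction claudin, had the lowest ratio of the 13 pairs, with a fold enrichment of 20.5 under NC-sh and 6.81 under METTL3-sh, a log2 ratio of -1.59. Its reads were 172 and 222, a ratio whose interval was 1.05 to 1.58, while the local expectation was 1.80 and 11. As at the 5′ ZEB1 peak, the expectation was higher in METTL3-sh where fold enrichment was lower. The reads are not scaled to library depth, and what lowered the fold enrichment was not tested. OCLN, the gene of the tight junction protein occludin, had the highest ratio, 9.97 and 22.4 with a log2 ratio of 1.17, on 43 and 96 reads. The expectation of this OCLN pair was 0.512 and 0.600, close to the lowest of each list (0.511 under NC-sh and 0.588 under METTL3-sh). The other 2 OCLN pairs were within 1.5-fold. DSP, the gene of the desmosome protein desmoplakin, had 18.2 and 14.8 in its only pair. TJP1, named because its pair was the other with a lower call, had 10.1 and 6.20. EPCAM, KRT8, KRT18 and the catenin genes CTNNB1, CTNNA1 and CTNND1 had no peak, nor did ESRP1.

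Of 12 mesenchymal and matrix genes, 3 had peaks under NC-sh and 5 under METTL3-sh. TNC, the matrix glycoprotein tenascin-C, held the peak with the highest fold enrichment among these 37 genes, 31.4 on 477 reads in NC-sh, where 2 METTL3-sh peaks of 26.4 and 12.9 lay. Since the peak overlapped both, it formed no pair. ITGA5, a fibronectin receptor subunit, had 7.14 under NC-sh and 10.5 under METTL3-sh on 586 and 461 reads. CD44, a hyaluronan receptor named after its values were seen, had 3 peaks in METTL3-sh alone, with 112, 136 and 97 reads. FN1, SPARC, ITGB1, MMP2, MMP14, COL1A1 and AXL had no peak.

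TGF-beta signalling, a known inducer of EMT, was represented by 8 genes, 2 with peaks under NC-sh and 6 under METTL3-sh, again from lists of 9441 and 12252 peaks. They held 8 peaks in the knockdown list, 2 of which (25%) met a peak of the other list, beside 58.6% of all. This was the lowest share of the roles, the others being 60% for transcription factors, 88.9% for epithelial and 50% for mesenchymal genes. Of the 3 NC-sh peaks of the TGF-beta genes, 2 were overlapped. With so few peaks, nothing particular to TGF-beta genes is read from these shares. SMAD3 and SMAD2, the receptor-activated transducers, each shared a peak. In SMAD3 fold enrichment was 10.4 under NC-sh and 14.1 under METTL3-sh at the same summit, on 761 and 1506 reads, and in SMAD2 it was 8.90 and 11 on 1547 and 1727 reads. SMAD7, the inhibitory SMAD, had 2 peaks of 10.9 and 11.5 in METTL3-sh alone. TGFB1 and SMAD4 had no peak. TGFB2, TGFBR1 and TGFBR2, a ligand and both receptors, are named after their values were seen, and each had 1 peak in METTL3-sh alone, with 31, 26 and 581 reads. The 6 genes of all roles with peaks in METTL3-sh alone held 9 peaks with a fold enrichment between 6.04 and 11.5, none reaching 12. In 5 of the 6, at least 1 NC-sh number was missing between the listed neighbours of the gene, and in TGFB2 none was. Over the whole NC-sh list, 6004 of the numbers up to 15445 were missing. Nothing particular to these genes is read from the missing numbers.

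Set side by side, pairs of ZEB1 and of the other EMT genes lay among all pairs on both measures, with CLDN1 near the edge. The CLDN1 log2 ratio of fold enrichment was above that of 0.801% of all pairs, and that of its expectation above 99.8%. Fold enrichment and local expectation moved in opposite directions, both by more than 0.01 on the log2 scale, in 7 of the 13 pairs of the other genes and 2 of the 3 of ZEB1, against 66.6% of all pairs. Fold enrichment is divided by the expectation, so part of this is fixed by how it is built, and nothing particular to these genes is read from it.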

How the data were processed

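MeRIP peaks were analysed from 1 NC-sh and 1 METTL3-sh library. The authors deposited 1 list per library. The submitters' processing notes name bcl2fastq, TopHat2 2.0.13, MACS2 2.1.0.20151222 and the build hg19. Filters and pooling are not given in the sources used here. The deposited pileup is a signal scaled by 1 factor per library, and the deposited fold enrichment is a ratio with a pseudocount of 1 on both parts. For each peak the authors also deposited −log10 p and −log10 q, as MACS2 gave them.

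Reads were pileup divided by its step, and local expectation was (pileup + 1) / fold enrichment − 1. Members had their summit in the hg19 windows of ZEB1, SNAI2, VIM, CDH1 and CDH2. Windows of the other genes were written from known hg19 gene positions, and for 40 of all 46 windows the width lay within 3 kb of the RefSeq gene length (6 others, CDH2 among them, differed more). The text names, per role, the genes with the 3 highest fold enrichments, and 1 of these is counted but its values are not reported here. Members and lists were chosen with earlier results of these data known. No test between conditions was made. Scripts were tested on simulated data. Python 3.11.15, numpy 2.4.6, pandas 2.3.3, scipy 1.17.1 and matplotlib 3.10.9 were used.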

Additional observations from a re-analysis of the deposited data

How the results depend on the processing

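Of 36 alternatives, 22 left the value within 1.5 times the main count or, for the median log2 ratio of the ZEB1 pairs, within the counting interval of the reads. With −log10 q at or above the median of both lists (36.6), member peaks were 1 under NC-sh and 2 under METTL3-sh, of which 1 each was overlapped. With a fold enrichment of at least 12, members were 1 and 1, overlapped members 0 and 0, and pathway genes with a peak 4 and 5. The median log2 ratio of 0.25 rests on the middle ZEB1 pair, as requiring an overlap of 50% of both peaks or summits within 100 bp removed that pair and gave -0.25. Among the ZEB1 pairs, a limit of 2-fold, chosen after seeing the data, left 0 higher and 0 lower. Of all pairs, 9.4% were at least 2-fold higher and 4.78% at least 2-fold lower. Merging peaks within 100 bp joined none. No paired analysis was possible because a condition held only 1 library, which left nothing to pair or to leave out. With 1 library per condition the variation between libraries is unknown, and with the total depth unknown too, the counting intervals of the reads are the only precision given.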
